A study of Mus musculus with 48 samples.

Results

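Acetazolamide given to pregnant mice was compared with its oil vehicle in the ectoderm of the embryonic forelimb bud, 3 h after injection. The comparison used 6 of the 48 arrays of the series, chosen by their titles: 3 labelled 3 h ectoderm acetazolamide and 3 labelled 3 h ectoderm oil. Dams received acetazolamide at 400 mg/kg, suspended in vegetable oil, by intraperitoneal injection on gestation day 9.5, and the oil group stands for the vehicle alone. The labels name no strain or allele, and embryos of both groups were otherwise handled alike. Right forelimb buds were dissected, ectoderm and mesoderm were parted with trypsin, and tissue of several litters was pooled for RNA, although another label speaks of extracts that were not pooled. The same series holds acetazolamide against oil in 3 h mesoderm, 12 h ectoderm and 12 h mesoderm, and cadmium sulfate at 4 mg/kg against phosphate-buffered saline (PBS) in the same tissues and times, with 3 arrays in each group. Nothing in the labels says that arrays of a group came from separately treated sets of dams, so p-values measure only the spread between these RNA samples.

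Acetazolamide inhibits carbonic anhydrases, the enzymes that interconvert carbon dioxide and bicarbonate and so help to set pH inside and outside cells. In mouse embryos it is a known teratogen of the forelimb. The limb bud ectoderm is a thin epithelial jacket around the mesoderm, and its distal rim, the apical ectodermal ridge, secretes FGF, BMP and Wnt ligands that keep the mesoderm growing and patterned. The question the comparison addresses is which RNAs of this jacket had changed soon after the drug was given.

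Each value is a ratio to vehicle arrays and is given below as log2, so that 1 is a doubling. Of 12488 probe sets on the array, 10855 named 1 gene. Leaving out 22 control probe sets, 10833 probe sets were averaged to 8251 genes. Because every array was divided by vehicle arrays, no level was kept. The label "ectoderm" therefore could not be checked against the levels of epithelial and mesodermal genes, and how far any gene stood above background is unknown. In every comparison, vehicle arrays 1 and 2 summed to 2 as ratios and vehicle array 3 was 1, so the oil values lie around 0 by construction and oil array 3 is exactly 0. Effects are log2 differences, acetazolamide minus oil, with a standard error (SE) from limma, and n = 3 arrays in each group throughout.

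Array 3 did not run with arrays 1 and 2. The SD over genes of the log2 ratio was 0.318, 0.244 and 0.433 in acetazolamide arrays 1 to 3. The difference in array 3 spread more than the mean difference of arrays 1 and 2 in 7 of the 8 comparisons of the series, as a single array against a mean of 2 tends to. Here the correlation over genes between the 2 sets of differences was near 0 (Pearson r = -0.091 over 8251 genes, which are not independent replicates). In cadmium 3 h ectoderm the same r was -0.11, in acetazolamide 3 h mesoderm 0.17 and in acetazolamide 12 h ectoderm 0.26. That acetazolamide array 3 was divided by oil array 3 alone is an inference from the numbering. If it was, an unusual acetazolamide array 3 and an unusual oil array 3 cannot be told apart. Leaving out acetazolamide array 3 moved the effect by over 1.5 times for 33 of the 91 genes with an unadjusted p under 0.05 that were on the gene lists used below or among the strongest genes, and for each of those 33 the effect without it is given beside the value ("without array 3").

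**Figure D1:**
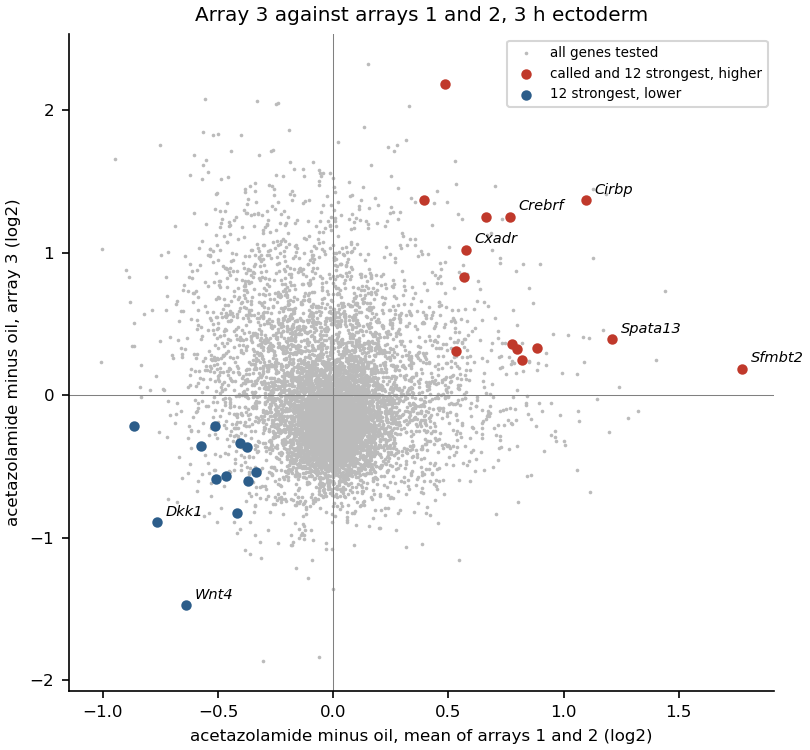
Each point is a gene, with the log2 difference (acetazolamide minus oil) in arrays 1 and 2 across and in array 3 upwards. Red points are the 2 genes that passed the test and the 12 strongest other genes higher with acetazolamide, and blue points the 12 strongest lower ones. The vertical scatter of single-array differences is wider than the horizontal scatter of means of 2, and Crebrf and Cxadr were higher in both.

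Of the 8251 genes, 2 rose after acetazolamide (0.0242%) and 0 fell (0%) at an adjusted p under 0.05 by limma with Benjamini-Hochberg adjustment. At an unadjusted p under 0.05 there were 276 higher genes (3.35%) and 288 lower genes (3.49%). These shares over all genes are the background for the list counts below. The median effect over all genes was -0.042, and 38.9% of genes were above 0. The 95% confidence interval of a gene, not adjusted for the number of genes, reached 0.289 to either side at the median. Changes much smaller than this could not be told from 0 with 3 arrays a group. A call at an adjusted p under 0.05 took a larger change, and its SE counted as well. Spata13, at 0.94 with an SE of 0.19, was not called, while Cxadr, at 0.72 with an SE of 0.12, was. The 2 calls also depend on borrowing the spread from the whole series: in a fit of the 6 arrays alone, 0 genes passed and 460 had an unadjusted p under 0.05.

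Crebrf rose most clearly. It encodes CREB3 regulatory factor, a nuclear protein known in mouse and human cells to recruit the endoplasmic reticulum factor CREB3 for breakdown and to damp the unfolded protein response. It gave 0.84, 0.70 and 1.25 in acetazolamide arrays 1 to 3, against 0.02, -0.02 and 0 in the oil arrays. All 3 acetazolamide arrays lay above all 3 oil arrays. The effect was 0.93 ± 0.12 (SE), a 1.91-fold difference with a 95% interval of 0.68 to 1.18 in log2 (limma adjusted p = 0.000188). Without array 3 of acetazolamide the effect was 0.77 (limma adjusted p = 0.000543). Crebrf is measured by 1 probe set of a kind whose name marks relaxed design rules, and no other probe set of the array checks it.

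Cxadr was the other gene that rose. It encodes the coxsackievirus and adenovirus receptor, an adhesion molecule of epithelial tight junctions. It gave 0.52, 0.63 and 1.02 in acetazolamide arrays 1 to 3, against 0.04, -0.04 and 0 in the oil arrays, with no overlap. The effect was 0.72 ± 0.12 (SE), a 1.65-fold difference with a 95% interval of 0.48 to 0.97 (limma adjusted p = 0.00736). The call was lost when acetazolamide array 2 was left out (effect 0.74, limma adjusted p = 0.0543), and without array 3 the effect was 0.58 (limma adjusted p = 0.00925). Both genes sit on gene lists used below, and they were put there with these results known.

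The promoter of Crebrf is shown because it is the only promoter of a gene that passed the test among those at hand. It is set beside that of D430019H16Rik, an uncharacterised gene described below whose values lay close together in the 4 acetazolamide comparisons without passing the test in any of them. Both are read from RefSeq windows of 300 bases on GRCm38.p6 (250 before the start site and 50 from it on), Crebrf at chr17:26715400-26715699 and D430019H16Rik at chr12:105453606-105453905, both on the plus strand. Capitals mark CACGTG, the palindromic E-box, a motif searched after the sequences had been read.
Crebrf: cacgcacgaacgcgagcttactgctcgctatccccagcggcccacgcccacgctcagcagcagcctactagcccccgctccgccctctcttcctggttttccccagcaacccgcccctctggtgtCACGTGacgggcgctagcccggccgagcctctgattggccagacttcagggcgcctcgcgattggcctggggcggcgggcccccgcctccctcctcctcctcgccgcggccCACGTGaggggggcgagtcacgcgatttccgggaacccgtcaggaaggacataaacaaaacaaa
D430019H16Rik: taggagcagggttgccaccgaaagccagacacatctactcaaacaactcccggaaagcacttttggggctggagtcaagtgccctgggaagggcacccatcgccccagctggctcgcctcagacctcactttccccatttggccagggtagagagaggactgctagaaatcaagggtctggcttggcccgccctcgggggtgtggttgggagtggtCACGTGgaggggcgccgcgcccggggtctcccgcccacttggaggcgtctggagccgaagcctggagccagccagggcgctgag
The Crebrf window holds CACGTG at 2 places, starting 125 and 14 bases before the start site, and the D430019H16Rik window at 1 place, 34 bases before it. Of 32851 promoter windows in the table, 7.15% hold it. Of the other motifs searched on both strands, the cyclic AMP response element TGACGTCA (1.79% of windows) and the forkhead motif TGTTTAC (3.65%) are in neither window. CCACG (32.8%) and GGGCGG (35.7%) are in both, and 2 of these CCACG matches, 1 in each window, overlap an E-box. A match describes the letters and is not a measured binding site.

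Beyond the called genes, the 12 highest and 12 lowest moderated t statistics, among genes of the same sign in arrays 1 and 2 and in array 3, were followed without being called. Of these 24 genes, 22 had no overlap between acetazolamide and oil arrays, 10 of the higher and 12 of the lower ones. The 24 were picked by t in these same arrays, which favours genes without overlap, so this count is no separate support. Over all genes, 393 (4.76%) lay wholly above the oil arrays and 748 (9.07%) wholly below, a share that the oil ratios' narrow spread around 0 enters. Adjusted p-values of the 24 ran from 0.095 to 0.455 (limma). When array 3 of acetazolamide was left out, 78 genes passed the test, 39 in each direction, among them 14 of these 24. Because arrays 1 and 2 entered the choice of the 24, the 14 are no separate support either.

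**Figure D2:**
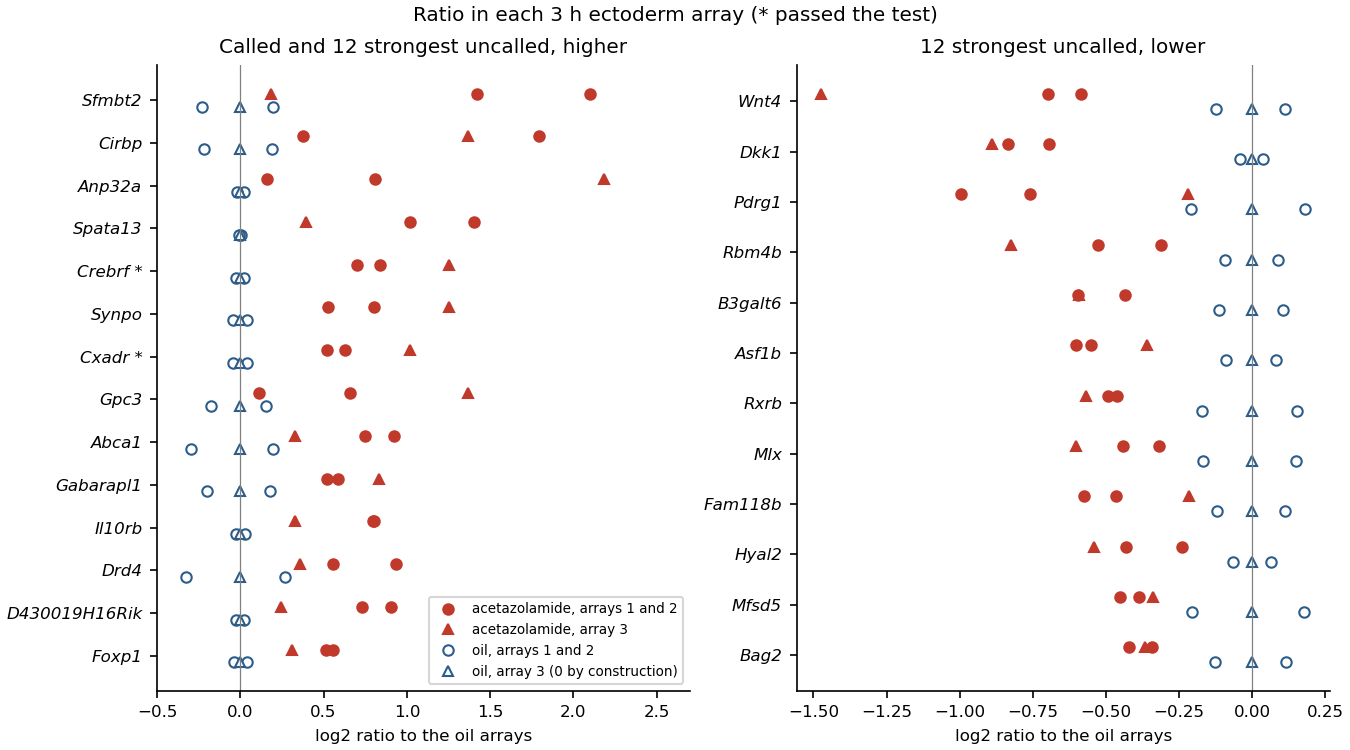
Log2 ratio to the oil arrays in each 3 h ectoderm array, for the 2 genes that passed the test (asterisks) and the 24 strongest other genes. Red symbols are acetazolamide and open blue symbols oil, with triangles for array 3. In Sfmbt2, Spata13 and Pdrg1 the acetazolamide array nearest to the oil arrays is array 3, while in Crebrf, Cxadr and Wnt4 array 3 is the farthest from them.

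Among the higher genes, Spata13 gave 1.40, 1.02 and 0.39 in acetazolamide arrays, against 0.01, -0.01 and 0 in oil arrays. Its effect of 0.94 ± 0.19 had a limma adjusted p of 0.095. Abca1, the cholesterol exporter, gave 0.70 ± 0.16 over probe sets that disagreed, at 1.48 ± 0.35 and -0.08 ± 0.10. Synpo, which encodes the actin-associated protein synaptopodin, gave 0.86 ± 0.21. Il10rb, a subunit of interleukin-10 family receptors, gave 0.64 ± 0.16, with 0.79, 0.80 and 0.33 in acetazolamide arrays. Gpc3, a cell-surface proteoglycan, gave 0.72 ± 0.18 (0.39 without array 3) with overlap between the groups, and Drd4, a dopamine receptor, gave 0.64 ± 0.14. Gabarapl1 belongs to the ubiquitin-like proteins that build autophagosomes. It gave 0.52, 0.58 and 0.83 with acetazolamide, against 0.18, -0.20 and 0 with oil, an effect of 0.65 ± 0.14.

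Cirbp, the cold-inducible RNA-binding protein, gave 1.79, 0.38 and 1.37 in acetazolamide arrays, against 0.19, -0.22 and 0 in oil arrays, an effect of 1.19 ± 0.26. Sfmbt2, an imprinted Polycomb group gene, gave 2.10, 1.42 and 0.19 with acetazolamide, against -0.23, 0.20 and 0 with oil. Its acetazolamide array 3 lay within the oil range. Foxp1, a forkhead transcription factor, averaged 0.46 ± 0.10, but its probe sets disagreed: one gave 0.87 ± 0.14 and would pass when probe sets are tested singly (limma adjusted p = 0.00671), the other 0.06 ± 0.13. Anp32a, a histone-binding acidic nuclear protein, likewise averaged 1.05 ± 0.26 (0.48 without array 3) over a probe set at 2.07 ± 0.49 and one at 0.03 ± 0.13. The larger of these had 4.24 in acetazolamide array 3, the highest ratio of that array at 18.9 on the linear scale.

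Among the lower genes, Dkk1, the secreted Wnt antagonist, gave -0.70, -0.83 and -0.89 in acetazolamide arrays, against -0.04, 0.04 and 0 in oil arrays. The 3 acetazolamide arrays were close together, and the effect was -0.81 ± 0.19 (limma adjusted p = 0.18). Wnt4, a secreted Wnt ligand, gave -0.70, -0.59 and -1.47 with acetazolamide, against 0.11, -0.12 and 0 with oil, an effect of -0.92 ± 0.24 and the lowest of all genes tested. B3galt6, an enzyme that builds the linker of proteoglycan sugar chains, gave -0.54 ± 0.15. Hyal2, a hyaluronidase, gave -0.40 ± 0.12.

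Rxrb, the beta retinoid X receptor, gave -0.50 ± 0.14, with -0.49, -0.46 and -0.57 in acetazolamide arrays. Mlx, a basic helix-loop-helix partner of glucose-sensing factors, gave -0.45 ± 0.13, and Asf1b, a histone chaperone, -0.50 ± 0.13. Bag2, a co-chaperone of Hsp70 read by 3 probe sets, gave -0.42, -0.34 and -0.37 with acetazolamide, against 0.12, -0.13 and 0 with oil, an effect of -0.37 ± 0.09. Its probe sets disagreed, at -0.65, -0.29 and -0.18, and in each of the 3 the groups overlapped. The lowest gave -1.03, -0.78 and -0.16 in acetazolamide arrays, and the highest 0.14, 0.15 and -0.82, so the even array means hide this. Rbm4b (-0.55 ± 0.14) encodes an RNA-binding protein, and Mfsd5 (-0.38 ± 0.10) a membrane transporter. Pdrg1 (-0.65 ± 0.18) and Fam118b (-0.42 ± 0.12) completed the set.

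The carbonic anhydrase genes, the family that holds the drug's targets, gave no called change. Of 9 measured, 0 passed at an unadjusted p under 0.05 in either direction, and their median effect was -0.07, against -0.04 over all genes. Car14, a membrane-bound form, gave 0.28, 0.06 and 0.13 in acetazolamide arrays, against 0.05, -0.05 and 0 in oil arrays, and was the only member with no overlap between groups. Its effect was 0.16 ± 0.16. Over all genes, 4.76% lay wholly above the oil arrays. Car2, the main cytosolic form, gave -0.18 ± 0.18 with a 95% interval of -0.56 to 0.19. Its acetazolamide arrays gave -0.42, -0.32 and 0.18, and its effect without array 3 was -0.37. Car3 gave 0.16 ± 0.19, and Car1, the form of early red cells, -0.14 ± 0.12. Car4 (0.01 ± 0.10), Car5a (-0.07 ± 0.13), Car6 (-0.11 ± 0.13), Car8 (0.02 ± 0.14) and Car12 (-0.10 ± 0.11) lay near 0, and all 5 changed sign when array 3 was left out. Of 24 genes of acid-base and bicarbonate transport, 0 were called, and Atp6v0a2, a subunit of the proton-pumping vacuolar ATPase, was the 1 member at an unadjusted p under 0.05, with -0.31 ± 0.14. The other subunits Atp6v1d (0.41 ± 0.22) and Atp6v1a (0.32 ± 0.19, with 3 probe sets from 0.03 to 0.66) lay above 0, and Atp6v1d rested on array 3 alone (-0.13, 0.10 and 1.25 with acetazolamide).

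Genes of the CREB and unfolded protein responses did not move with Crebrf as groups. Of 20 genes of the CREB and cyclic AMP response, 1 was called (Crebrf itself, listed with its result known), and the median was -0.04. At an unadjusted p under 0.05, 2 were higher and 1 lower (3.35% and 3.49% over all genes). Creb1, the founding factor of the family, gave -0.20 ± 0.08 (-0.12 without array 3), and Nr4a1, a nuclear receptor induced by cyclic AMP, gave 0.34 ± 0.16 with 0.92, 0.07 and 0.02 in acetazolamide arrays. Of 27 unfolded protein response genes, again only Crebrf was called, and the median was 0.01. Xbp1, a transcription factor of that response, gave -0.84, -0.52 and -0.13 with acetazolamide, against 0.03, -0.03 and 0 with oil, and an effect of -0.50 ± 0.24. Pdia4, a chaperone of the endoplasmic reticulum, gave 0.78 ± 0.33. Of 36 amino acid stress genes, 0 were called, 2 were higher at an unadjusted p under 0.05 (Slc7a5 at 0.47 ± 0.19 and Slc6a15 at 0.33 ± 0.14 and 0.50 without array 3, both amino acid transporters). The 1 lower was the tryptophanyl-tRNA synthetase gene Wars (-0.25 ± 0.10, and -0.38 without array 3), whose 3 probe sets ran from -0.40 to -0.06.

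Of 34 hypoxia and glycolysis genes, 0 were called, with a median of 0.03. At an unadjusted p under 0.05, 3 were higher and 0 lower (3.35% and 3.49% over all genes). The 3 are known targets of the hypoxia-inducible factors. Ndrg1, a stress-responsive gene, gave 1.43, 0.83 and 1.44 in acetazolamide arrays, against 0.07, -0.07 and 0 in oil arrays, an effect of 1.23 ± 0.46 (limma adjusted p = 0.63). Bnip3, which encodes a mitochondrial protein of mitophagy, gave 0.72, 0.63 and 1.14 with acetazolamide, against -0.16, 0.14 and 0 with oil, an effect of 0.83 ± 0.39. Pdk1, the kinase that shuts pyruvate out of mitochondria, gave 0.41, 0.55 and 0.94 with acetazolamide, against -0.15, 0.14 and 0 with oil, an effect of 0.64 ± 0.26. In all 3 genes the groups did not overlap. Of the 34, 6 lay wholly above the oil arrays, where 4.76% of all genes did. The SEs draw on the spread of each gene over the whole series.

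Other stress lists had 0 called genes. Of 16 p53 targets, 13 lay above 0, where 38.9% of all genes did, with a median of 0.21. At an unadjusted p under 0.05, 2 were higher (3.35% over all genes). They were Zmat3, an RNA-binding zinc finger gene, at 0.57 ± 0.16, and Rrm2b, a ribonucleotide reductase subunit, at 0.41 ± 0.19 (0.68 without array 3). Mdm2, the p53 ubiquitin ligase, gave 0.28 ± 0.16. That median was 0.04 without array 3, where the list's median ratio was 0.44, against -0.02 and 0.09 in acetazolamide arrays 1 and 2. The oxidative stress list (33 genes, median -0.03) had 1 higher gene at an unadjusted p under 0.05, Me1, the NADP-dependent malic enzyme, at 0.45 ± 0.15, while Gsr (0.67 ± 0.37) and Gpx1 (-0.21 ± 0.13) were its next strongest. The heat shock list (31 genes, median -0.01) had 2 higher, the co-chaperone genes Bag3 (0.47 ± 0.18) and Dnajb6 (0.31 ± 0.14, and 0.18 without array 3). Its 2 lower were the small heat shock gene Hspb8 (-0.22 ± 0.10, and -0.34 without array 3) and Hspa8, which encodes the constitutive Hsp70 (-0.27 ± 0.13, and -0.53 without array 3). The probe sets of Dnajb6 gave 0.52 ± 0.15 and 0.11 ± 0.19. Of 18 metallothionein and metal transport genes, 1 was higher at an unadjusted p under 0.05, the zinc importer Slc39a8 (0.60 ± 0.19), and the next were Mt3 (-0.30 ± 0.15) and Slc39a4 (-0.19 ± 0.13).

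Of 30 immediate early genes, 2 were higher and 3 lower at an unadjusted p under 0.05, with a median of 0.00. The higher ones were Jund (0.55 ± 0.25), with 0.75, 0.43 and 0.45 in acetazolamide arrays, and Nr4a1. The lower ones were Jun (-0.23 ± 0.09, and -0.11 without array 3), the phosphatase gene Dusp2 (-0.28 ± 0.11, and -0.15 without array 3) and Myc (-0.41 ± 0.18). Of 26 glucocorticoid response genes 0 passed at that level, the strongest being Zbtb16 (0.20 ± 0.10, with probe sets at 0.50 and -0.10), Tat (-0.12 ± 0.10) and Hif3a (-0.17 ± 0.15). Among 18 clock genes only Cry1, a repressor of the circadian loop, did, at 0.32 ± 0.11, while Npas2 (-0.19 ± 0.11) and Nr1d2 (0.35 ± 0.25) did not. Of the 3 probe sets of Cry1, one gave 0.79 ± 0.26 and the others 0.14 ± 0.09 and 0.02 ± 0.09. Of 33 apoptosis genes, at that level, Bcl2l2 (0.36 ± 0.16) and Bnip3 were higher and Diablo lower (-0.20 ± 0.10, and -0.02 without array 3). Of 18 cholesterol synthesis genes, only the sterol desaturase gene Sc5d passed at that level (0.96 ± 0.34), with Nsdhl (-0.26 ± 0.15, with 3 probe sets from -0.46 to -0.06) and Idi1 (-0.22 ± 0.21) next. None of these 5 lists had a gene called at an adjusted p under 0.05.

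**Figure D3:**
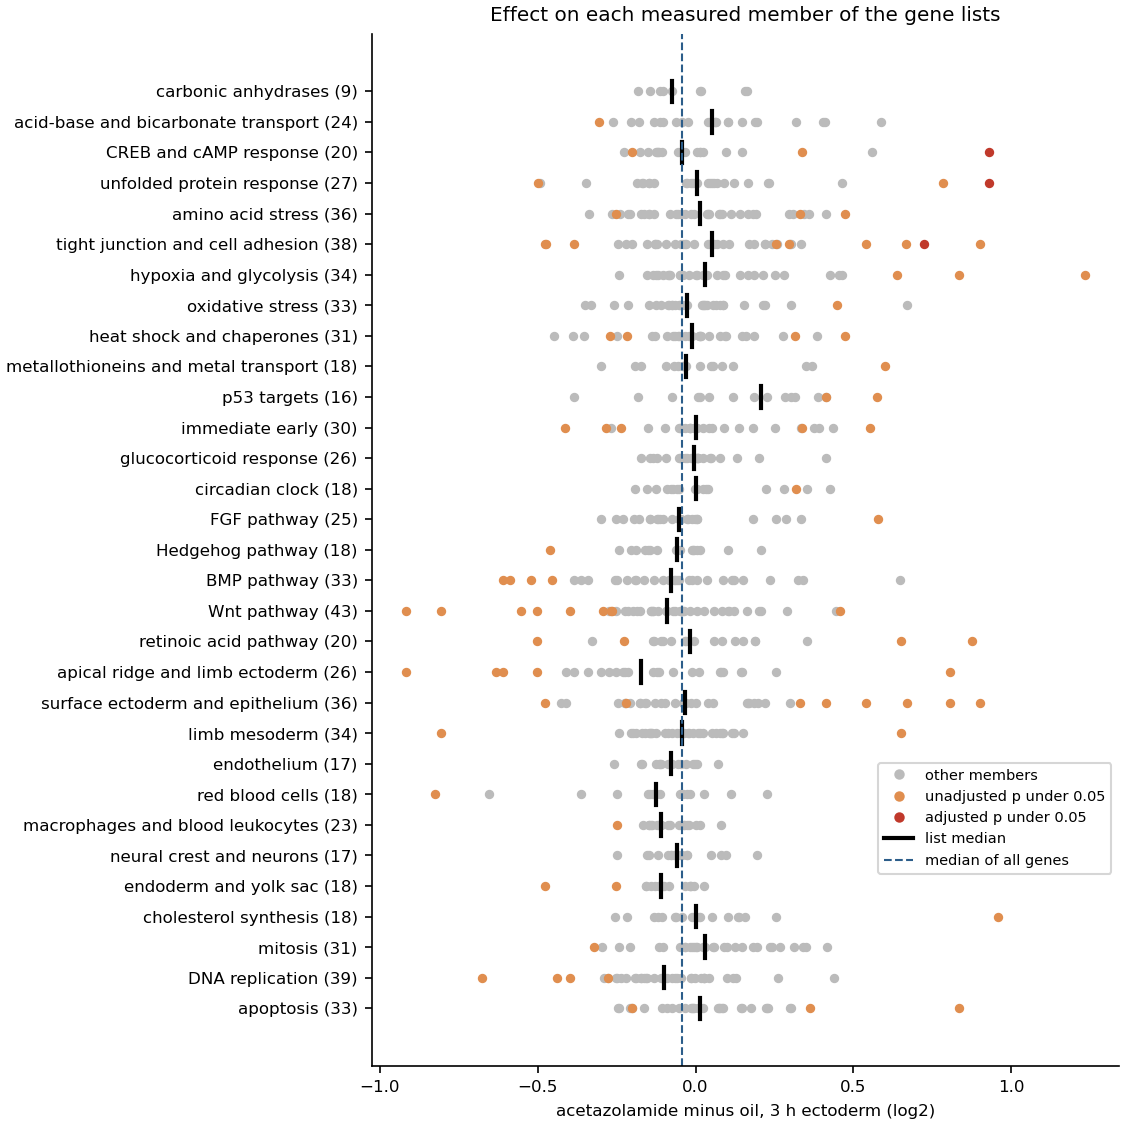
Effect of acetazolamide (log2, acetazolamide minus oil, 3 h ectoderm) on each measured member of the 31 gene lists, with the number measured in brackets. Black bars are list medians and the dashed line is the median of all genes at -0.042; red points are Crebrf, which is on 2 lists, and Cxadr.

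Of 38 tight junction and adhesion genes, 1 was called (Cxadr), 6 were higher and 3 lower at an unadjusted p under 0.05 (3.35% and 3.49% over all genes), and the median was 0.05. Of the 38, 9 lay wholly above the oil arrays, where 4.76% of all genes did. Cxadr, put on this list with its result known, is counted in the 6 and in the 9. Itga6, the alpha6 integrin that anchors epithelium to its basement membrane, gave 0.77, 0.52 and 1.24 in acetazolamide arrays, against -0.58, 0.41 and 0 in oil arrays, an effect of 0.90 ± 0.25. Epcam, an epithelial adhesion molecule, gave 0.54 ± 0.20 (0.29 without array 3), and the desmosome genes Dsc2 (0.67 ± 0.26), Dsg2 (0.30 ± 0.13, and 0.45 without array 3) and Pkp2 (0.25 ± 0.09) were also above 0. The probe sets of these 3 disagreed, at 1.19 and 0.15 for Dsc2, 0.62 and -0.03 for Dsg2, and -0.05 to 0.56 for Pkp2. Against them, the desmosomal plaque gene Pkp3 (-0.48 ± 0.21), the claudin gene Cldn6 (-0.48 ± 0.21, and -0.74 without array 3) and the polarity gene Patj (-0.38 ± 0.17, and -0.21 without array 3) were below 0.

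Of 36 surface ectoderm and epithelium markers, which share several of these genes, 0 were called, and the median was -0.03. At an unadjusted p under 0.05, 6 were higher and 2 lower (3.35% and 3.49% over all genes). Trp63, the master transcription factor of stratified epithelium, gave 0.30, 0.32 and 1.79 with acetazolamide, against -0.12, 0.11 and 0 with oil. Array 3 carried most of its effect of 0.81 ± 0.29 (0.32 without array 3). The AP-2 factor genes Tfap2c (1.18, 0.89 and -0.11 with acetazolamide) and Tfap2a (0.81, 0.74 and -0.36) ran the other way, above 0 in arrays 1 and 2 and below it in array 3. Their effects were 0.67 ± 0.22 and 0.41 ± 0.19 (1.06 and 0.80 without array 3). The splicing regulator gene Esrp1 gave 0.33 ± 0.15, and the keratin gene Krt17, besides Cldn6 the lower one, gave -0.22 ± 0.11 (-0.09 without array 3).

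Limb ectoderm genes, many of them made by the apical ridge, had a median of -0.17, against -0.04 over all genes. Of 26 measured, 0 were called. At an unadjusted p under 0.05, 1 was higher (Trp63) and 4 were lower (3.35% and 3.49% over all genes). The 4 were Wnt4, Wnt6 (-0.50 ± 0.22), Bmp7 (-0.61 ± 0.23, and -0.36 without array 3) and Rspo2, a secreted amplifier of Wnt signals (-0.63 ± 0.28). Without array 3 the list's median was -0.09. Its median ratio was -0.06, -0.12 and -0.28 in acetazolamide arrays 1 to 3.

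Of 43 genes of the Wnt pathway, 0 were called, 8 were lower and 1 higher at an unadjusted p under 0.05 (3.49% and 3.35% over all genes), with a median of -0.09. Ligands made up 5 of the 8: Wnt4, Wnt6, Wnt5a (-0.55 ± 0.18, and -0.34 without array 3), Wnt7b (-0.26 ± 0.10, and -0.12 without array 3) and Wnt8a (-0.27 ± 0.13). Wnt6, a ligand of the surface ectoderm, gave -0.22, -0.47 and -0.82 in acetazolamide arrays, against -0.01, 0.01 and 0 in oil arrays. Wnt5a, a ligand of non-canonical signalling, gave -0.18, -0.50 and -0.98, against -0.01, 0.01 and 0. The lowest value was that of acetazolamide array 3 in all 5 ligands. The other 3 were Dkk1, the receptor gene Fzd6 (-0.29 ± 0.11, and -0.16 without array 3) and Apc, a scaffold of the beta-catenin destruction complex (-0.40 ± 0.15, and -0.09 without array 3). Wnt11 was the higher one (0.46 ± 0.17).

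Of 33 genes of the BMP pathway, 0 were called, and 4 were lower and 0 higher at an unadjusted p under 0.05 (3.49% and 3.35% over all genes). Of the 33, 8 lay wholly below the oil arrays, where 9.07% of all genes did. The ligand gene Bmp7 gave -0.20, -0.52 and -1.11 with acetazolamide, against 0.07, -0.07 and 0 with oil. The other 3 are known to be induced by BMP signals. Id1 gave -0.28, -0.79 and -0.71 with acetazolamide, against -0.09, 0.09 and 0 with oil, an effect of -0.59 ± 0.24, and Id3 gave -0.53, -0.51 and -0.53, against 0.09, -0.09 and 0, an effect of -0.52 ± 0.23. Smad6, an inhibitor of the pathway, gave -0.45 ± 0.18. Without array 3 the list's median was -0.02, against -0.08 with it.

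The other signalling lists had 0 called genes. Of 25 FGF pathway genes only the inhibitor gene Spred2 passed at an unadjusted p under 0.05 (0.58 ± 0.25, and 0.89 without array 3), while Dusp6, a feedback phosphatase of the pathway, gave 0.33 ± 0.17 (probe sets at 0.66 and 0.01) and Fgfbp1 -0.19 ± 0.10. Of 18 Hedgehog pathway genes only the receptor gene Smo did (-0.46 ± 0.18, and -0.18 without array 3, with 0.05, -0.40 and -1.03 in acetazolamide arrays), while Hand2 (-0.24 ± 0.14) and Hoxd13 (-0.20 ± 0.13) did not. Of 20 retinoic acid pathway genes, 2 were lower, Rxrb and Aldh1a1 (-0.23 ± 0.11, and -0.09 without array 3). The 2 higher ones disagreed between arrays: the binding protein gene Crabp2 gave 0.25, 0.01 and 2.33 in acetazolamide arrays, and Meis2, a proximal limb factor, gave 1.55, 0.49 and -0.18. Without array 3 their effects were 0.15 and 1.07, against 0.87 and 0.65 with it.

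Of 39 DNA replication genes, 0 were called, 4 were lower and 0 higher at an unadjusted p under 0.05 (3.49% and 3.35% over all genes), with a median of -0.10, and -0.16 without array 3. The 4 act at the fork. Fen1, the flap endonuclease, gave -0.41, -0.78 and -0.84 in acetazolamide arrays, against 0.00, -0.00 and 0 in oil arrays, an effect of -0.68 ± 0.27. Cdc45, part of the replicative helicase, gave -0.40 ± 0.13, Pola2, a subunit of DNA polymerase alpha, -0.44 ± 0.14, and Rfc5, a subunit of the clamp loader, -0.28 ± 0.10. Of 31 mitosis genes, only Cdc20, an activator of the anaphase-promoting complex, passed at that level (-0.32 ± 0.14), with Ttk (0.42 ± 0.23) and Cdc25c (0.34 ± 0.19) next.

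Markers of other cells that a dissected jacket could hold showed no called gene. Of 34 limb mesoderm markers, 12 lay above 0, where 38.9% of all genes did. Of the same 34, 1 was higher (Meis2) and 1 lower (Dkk1) at an unadjusted p under 0.05. In 18 red cell markers the median was -0.13, and embryonic globin genes were low in 1 array: Hba-x gave -0.33, -0.27 and -1.87 in acetazolamide arrays, against 0.03, -0.03 and 0 in oil arrays (effect -0.82, and -0.30 without array 3), and Hbb-y gave -0.13, -0.08 and -1.84, against -0.28, 0.20 and 0. Medians were -0.08 for 17 endothelial markers (strongest Eng at -0.26 ± 0.21, Icam2 and Flt4), -0.11 for 23 macrophage and leukocyte markers (Cd68 at -0.25 ± 0.10 and -0.05 without array 3, then C1qc and C1qa), -0.06 for 17 neural markers (Tubb3 at -0.25 ± 0.13, Sox10 and Gap43), and -0.11 for 18 endoderm and yolk sac markers (Foxa1 at -0.25 ± 0.11 and -0.04 without array 3, Cldn6 and Apoc2). In acetazolamide array 3 the medians of these 6 lists lay between -0.27 and -0.17, where the median of all genes was -0.11. The ectoderm's own lists were as low in that array, at -0.28 for limb ectoderm genes and -0.25 for surface ectoderm and epithelium markers. In bulk RNA, fewer cells of a type and less RNA per cell cannot be told apart, and the part of these shifts in the results above was not tested.

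Of 4 RNA quality controls, actin and Gapdh had no overlap between the groups. The 3′ probe set of actin minus its 5′ probe set was 0.22, 0.19 and 0.38 in acetazolamide arrays, against 0.06, -0.05 and 0 in oil arrays. The same measure for Gapdh was 0.21, 0.70 and 0.45 in acetazolamide arrays, against 0.04, -0.04 and 0 in oil arrays. Both sets of acetazolamide values lay wholly above oil. For pyruvate carboxylase and the transferrin receptor the acetazolamide minus oil difference was -0.03 and 0.003. Their part in the results was not tested.

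The acetazolamide effect in 3 h ectoderm was set against other comparisons of the series, each with its own vehicle arrays. The numbers of called genes elsewhere were 3 in acetazolamide 3 h mesoderm (0.0364%), 0 in acetazolamide 12 h ectoderm, with 649 genes at an unadjusted p under 0.05, and likewise 0 in cadmium 3 h ectoderm, with 274. Of the 276 genes higher in 3 h ectoderm at an unadjusted p under 0.05, 91.3% were above 0 in acetazolamide 3 h mesoderm, where 43.5% of all genes were. The same share was 88.4% in acetazolamide 12 h ectoderm (49.6% of all genes), 52.9% in acetazolamide 12 h mesoderm (53.3% of all genes) and 55.1% in cadmium 3 h ectoderm (46.9% of all genes). Of the 288 lower genes, 77.1% were below 0 in 3 h mesoderm (56.5% of all genes), 61.5% in 12 h ectoderm (50.4%), 58.3% in 12 h mesoderm (46.7%) and 36.1% in cadmium 3 h ectoderm (53.1%). Pearson r over the 8251 genes was 0.518 with 3 h mesoderm, 0.408 with 12 h ectoderm, 0.107 with 12 h mesoderm and -0.160 with cadmium 3 h ectoderm.

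RNA quality values are set beside these shares here, except for acetazolamide 12 h mesoderm, where they were not computed. The actin 3′ to 5′ difference between treated and vehicle arrays was 0.26 in acetazolamide 3 h ectoderm, 0.52 in acetazolamide 3 h mesoderm and 0.23 in acetazolamide 12 h ectoderm, against -0.07 in cadmium 3 h ectoderm. For Gapdh it was 0.45, 0.59 and 0.41, against 0.10. Arrays 1 and 2 of 3 h ectoderm also differed in the same direction as those of 3 h mesoderm (r over genes 0.382 for acetazolamide and 0.460 for oil). The labels do not say whether the 2 tissues share pools of embryos. The part of the 3′ to 5′ values or of these array differences in the likeness was not tested.

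**Figure D4:**
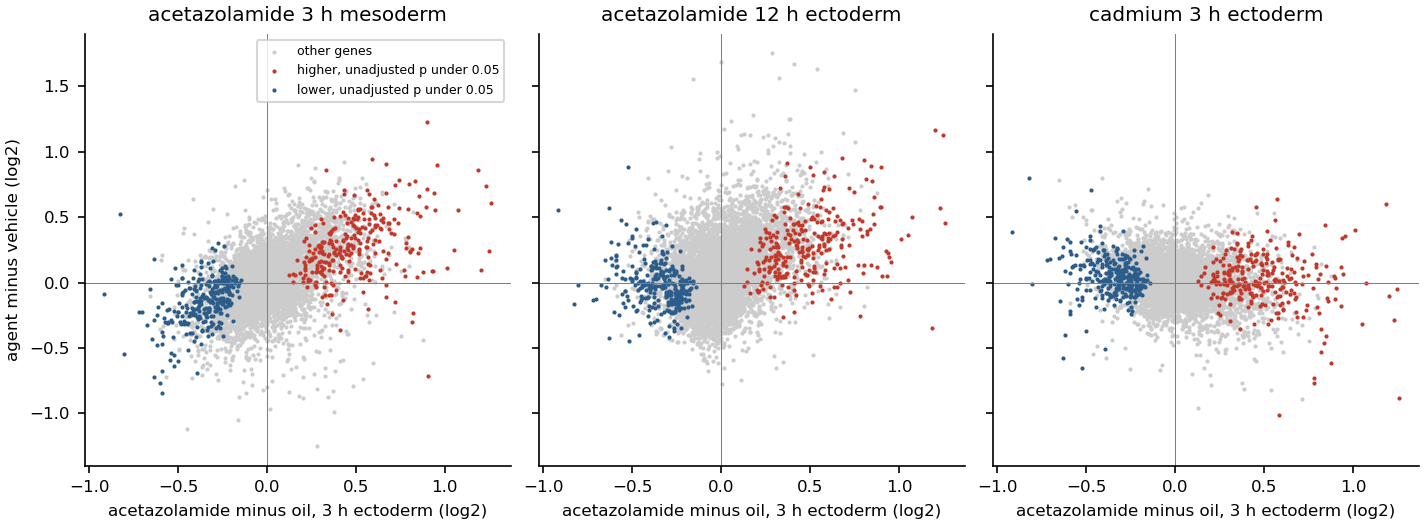
Effect of acetazolamide in 3 h ectoderm (across) against the effect in 3 comparisons with other vehicle arrays (upwards), in log2 for 8251 genes. Red and blue genes, higher and lower in 3 h ectoderm at an unadjusted p under 0.05, mostly kept their sign in acetazolamide 3 h mesoderm, while in cadmium 3 h ectoderm 36.1% of the lower ones did.

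Of the 8251 genes, a set of 25 was higher in all of acetazolamide 3 h ectoderm, 3 h mesoderm and 12 h ectoderm, and 1 gene was lower. Each time this was at an unadjusted p under 0.05. At that level 276, 379 and 468 of all genes were higher in the 3 comparisons, in that order, and 288, 228 and 181 lower. The set was formed after the values were seen, and 0 of its members passed the adjusted test in 3 h ectoderm. Retreg1, an autophagy receptor of the endoplasmic reticulum, was the strongest in 3 h ectoderm, at 0.86 ± 0.22 (SE), with 0.51 ± 0.22 in 3 h mesoderm and 0.65 ± 0.27 in 12 h ectoderm, and 0.01 ± 0.20 in cadmium 3 h ectoderm. Slc39a8, the zinc importer, gave 0.60 ± 0.19, 0.64 ± 0.19 and 0.49 ± 0.23 in the 3 acetazolamide comparisons, and 0.07 ± 0.17 with cadmium. Xpr1, the phosphate exporter, gave 0.60, 0.44 and 0.71, and -0.20 with cadmium. Zmat3 gave 0.57, 0.49 and 0.70, and -0.11 with cadmium. Ahcyl1 (0.68, 0.57 and 0.45), which encodes a regulator of inositol trisphosphate receptors and bicarbonate transport, was also in the set, at -0.11 with cadmium. The lower gene was Zfp787 (-0.19, -0.29 and -0.27, and 0.24 with cadmium). In cadmium 3 h ectoderm 16 of the 25 higher genes were above 0, where 46.9% of all genes were. Of the 25, 3 were higher there at an unadjusted p under 0.05, where 176 of all 8251 genes were. The 3 were Fyn, a Src family kinase gene (0.36 ± 0.16), Usp3, a deubiquitinase gene (0.27 ± 0.13), and Lpin1, a phosphatidate phosphatase gene (0.25 ± 0.09).

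D430019H16Rik had values close together in the 4 acetazolamide comparisons and passed the test in none of them. It gave 0.91, 0.73 and 0.24 in acetazolamide 3 h ectoderm arrays, against 0.02, -0.02 and 0 in oil arrays. Its effect was 0.63 ± 0.13 in 3 h ectoderm (limma adjusted p = 0.095), 0.59 ± 0.13 in 3 h mesoderm, 0.57 ± 0.16 in 12 h ectoderm and 0.62 ± 0.13 in 12 h mesoderm. In cadmium 12 h mesoderm it passed the test at 0.46 ± 0.10 (limma adjusted p = 0.00744), and in cadmium 3 h ectoderm it was at 0.11.

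The called genes stayed near 0 elsewhere. Crebrf gave 0.09 ± 0.12 in acetazolamide 3 h mesoderm, 0.24 ± 0.15 in acetazolamide 12 h ectoderm, 0.04 ± 0.13 in acetazolamide 12 h mesoderm and -0.18 ± 0.11 in cadmium 3 h ectoderm. Cxadr gave 0.14 ± 0.12, -0.07 ± 0.15 and -0.05 ± 0.12 in the same acetazolamide comparisons and 0.17 ± 0.11 in cadmium 3 h ectoderm. In the test of the difference of effects, acetazolamide minus cadmium in 3 h ectoderm, 1 gene passed (0.0121%), and it was Crebrf, at 1.11 ± 0.16 (limma adjusted p = 0.00202). It was 0.95 without acetazolamide array 3 (limma adjusted p = 0.0106). The agents were given in different vehicles, so each effect is relative to its own. Between tissues, 3 h ectoderm minus 3 h mesoderm, 0 genes passed (0%) and 140 had an unadjusted p under 0.05. Crebrf came nearest, at 0.84 ± 0.17 with a limma adjusted p of 0.30. Between times, 3 h minus 12 h ectoderm, 0 genes passed (0%) and 261 had an unadjusted p under 0.05. There Wnt4 differed by -1.47 ± 0.38 and Cxadr by 0.79 ± 0.19, neither past the adjusted threshold.

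**Figure D5:**
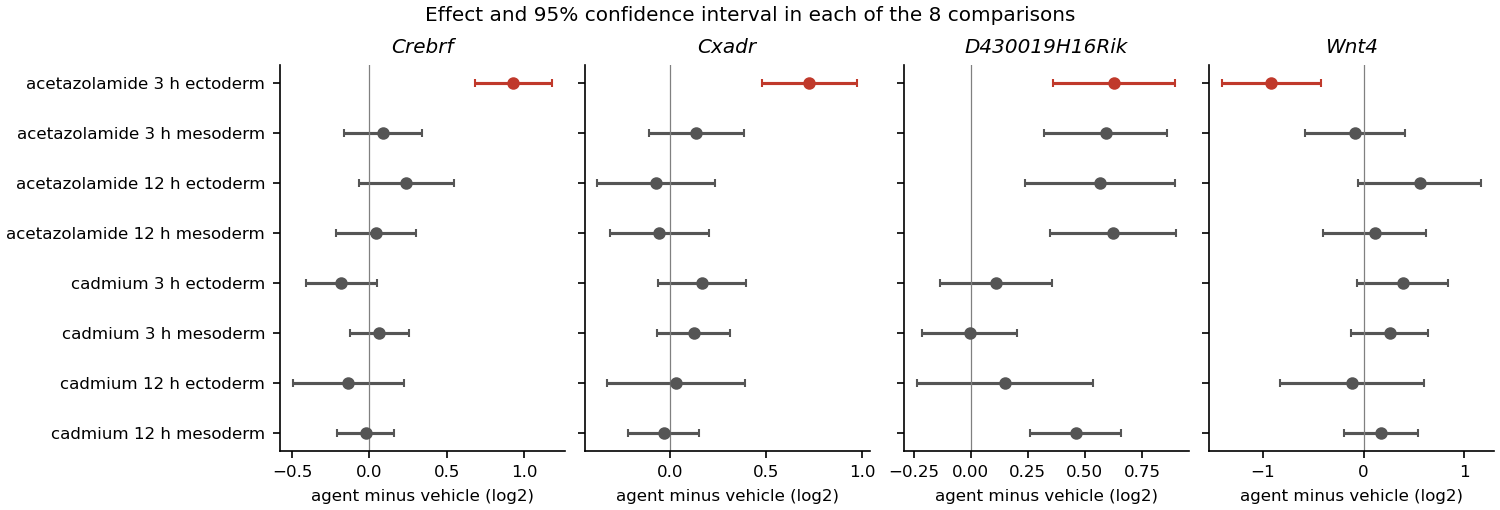
Effect (log2, agent minus vehicle) with its 95% confidence interval in each of the 8 comparisons, for the called genes Crebrf and Cxadr and the uncalled genes D430019H16Rik and Wnt4. Acetazolamide 3 h ectoderm is in red at the top; D430019H16Rik lies between 0.57 and 0.63 in the 4 acetazolamide comparisons, and the intervals of Crebrf and Cxadr include 0 in the 7 others.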

How the data were processed

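RNA of limb bud tissue was hybridised to Affymetrix MG-U74Av2 arrays, 1 RNA sample per array. In each deposited value an array is divided by vehicle arrays of its own tissue and time, giving a ratio, as the values themselves show, and the steps that made them are not given in the sources used here. Ratios were converted to log2, and probe sets naming 1 gene in the array annotation were averaged per gene. The Entrez identifiers of 10839 probe sets naming 1 gene were found in RefSeq (GRCm38.p6), and symbols were used as annotated. All 48 arrays entered 1 linear model (limma 3.58.1, R 4.3.3) with 16 denominator means, 8 agent effects, 24 residual degrees of freedom, 1 precision weight per comparison and moderation by eBayes without a trend. Adjustment (Benjamini-Hochberg, threshold 0.05) ran over 8251 genes, and the fit was tested on simulated data. That treated arrays 1 and 2 share the denominator of vehicle arrays 1 and 2 is an inference from the numbering. With no levels, filters on dim probe sets were not used. The number of arrays limits the precision.

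The genes named are every called gene, the 12 highest and 12 lowest moderated t statistics among genes with 1 sign in arrays 1 and 2 and in array 3, the 3 members of each list with the largest absolute t and every carbonic anhydrase, and genes called in a difference of effects. Other list members at an unadjusted p under 0.05 and the set shared by 3 comparisons were named after their values were seen. The members, the 31 gene lists and the tests were chosen with earlier results of these data known. The 1589 probe sets that name several genes or none were tested separately, with 0 called, 102 at an unadjusted p under 0.05 and a smallest limma adjusted p of 0.358.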

Additional observations from a re-analysis of the deposited data

Results flagged for a closer look

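The effect of acetazolamide in 3 h ectoderm minus that of cadmium differed for Crebrf, by 1.11 in log2, in the test of the difference itself (limma adjusted p = 0.00202). It was picked out because the same contrast, agent against vehicle, gave different effects for the 2 agents. Acetazolamide arrays were all above their oil arrays, at 0.84, 0.70 and 1.25, and cadmium arrays gave -0.07, -0.09 and -0.41, against 0.17, -0.19 and 0 in their PBS arrays. With arrays 1 and 2 alone the difference was 0.84 (limma adjusted p = 0.265).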

How the results depend on the processing

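The count of genes called in 3 h ectoderm, 2, was also 2 without weights, without the denominator block and with robust moderation. It was 8 with array medians centred, 28 with the first and second arrays of every comparison only, and 0 when only the 6 arrays compared were fitted. The labels share array numbers between groups but do not say that a number marks a shared pool. The differences between arrays 1 and 2 correlated at 0.22 over genes between acetazolamide and oil, array 3 gave no such check, and with a replicate block 5 genes passed. Leaving out each array in turn gave 2 to 78 calls, with 78 when array 3 of either group was absent, 5 without oil array 2, and 1 of the 2 calls lost without acetazolamide array 2. Crebrf was past the threshold in 12 of 13 alternatives (effect 0.77 to 1.01, limma adjusted p = 0.000193 to 0.566) and Cxadr in 11 of 13 (0.58 to 0.80, limma adjusted p = 0.000491 to 0.729). For acetazolamide minus cadmium the count of 1 was 0 with first and second arrays only, 0 with only the arrays compared, and 1 to 5 leaving out arrays (5 without PBS array 2, 3 without cadmium array 1, 2 without acetazolamide array 3 or oil array 2 or 3). For 3 h minus 12 h ectoderm the count was 0 to 1 (1 without either 12 h array 3), and for ectoderm minus mesoderm 0 in each. Signs turned with the first and second arrays only for Car4 (-0.06), Car5a (0.03), Car6 (0.01), Car8 (-0.07), Car12 (0.03), Atp6v1d (-0.01) and Cdc25c (-0.06). Leaving out arrays gave -0.059 to 0.0983 for Car4, -0.135 to 0.0256 for Car5a, -0.188 to 0.0114 for Car6, -0.0707 to 0.0699 for Car8, -0.187 to 0.0261 for Car12, -0.0119 to 0.594 for Atp6v1d and -0.0626 to 0.555 for Cdc25c. The cause of these shifts was not tested. Single probe sets in place of gene means gave 3 calls.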
